A study of Mus musculus with 6 samples.

Results

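Zymogen granules are the storage organelles of the pancreatic acinar cell. They hold digestive enzymes in a dense, acidic matrix until a rise in calcium drives their fusion with the apical membrane. Besides the enzymes they carry matrix proteins, which bind the content to the inner face of the membrane, and membrane glycoproteins, which face the granule lumen and reach the cell surface or the juice after secretion. The genes of 8 such proteins were followed here: Sycn, Zg16, Rnase1, Klk1 and Serpini2, which encode luminal or secreted proteins, and Gp2, Dmbt1 and Cuzd1, which encode membrane glycoproteins. They were chosen by name, with earlier results of these data known, as were the gene lists used below. All 8 were present among the 12016 genes of the authors' deposited table.

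The RNA came from the whole pancreas of 6 untreated male mice aged 3 weeks. Of these, 3 were wild type and 3 were homozygous for the OCaR1 null genotype (OCar1-/-), and the strain is given as C57Bl6/N in the protocol and C56Bl6/N in the strain field of both genotypes. OCaR1 is the product of Tmem63a, a calcium-permeable channel protein of acidic organelles; this link is background knowledge. The labels give neither the design of the allele nor the cells it acts in. Each mouse was sequenced as its own sample, but the table holds 1 FPKM value per genotype (a fragment count scaled by transcript length and library size), so no level has a spread between mice, an SD or an n of its own, and the depth is unknown. A gene is said to be called where its q-value in the authors' deposited table, from their Cuffdiff test, was under 0.05.

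Transcripts of the targeted gene were lower in the knockout group, with Tmem63a at 4.91 FPKM against a wild-type 18.3 FPKM (log2 ratio -1.90, with positive values higher in the knockout here and below; the authors' deposited table gives q = 0.00152). Acinar identity of the tissue was plain in both genotypes. Of 34 listed names of digestive enzyme genes and the trypsin inhibitor gene Spink3, 25 were in the deposited table. Ctrb1, Ctrc, Cela2a and Amy2b were among the names not found, so the list is not the full set of enzymes. The 25 genes held 49.0% of the summed FPKM of the knockout and 53.3% of that of wild type. The 8 granule protein genes held a further 9.16% and 9.37%.

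Of the 8 genes, 1 was called, Sycn, which was lower in the knockout. The share called among all 11478 tested genes was 7.54%, with 4.20% called higher and 3.35% called lower. A single call among 8 is close to that background, so the count itself is no result about the group. Of the other 7 genes, Dmbt1 had an unadjusted p under 0.05, and none was called. The log2 ratios ran from -0.44 (Sycn) to 0.43 (Dmbt1), with 4 values above and 4 below 0. Their median was 0.01, beside -0.03 over all tested genes, and their median size was 0.18, the same as the 0.18 of all tested genes.

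**Figure D1:**
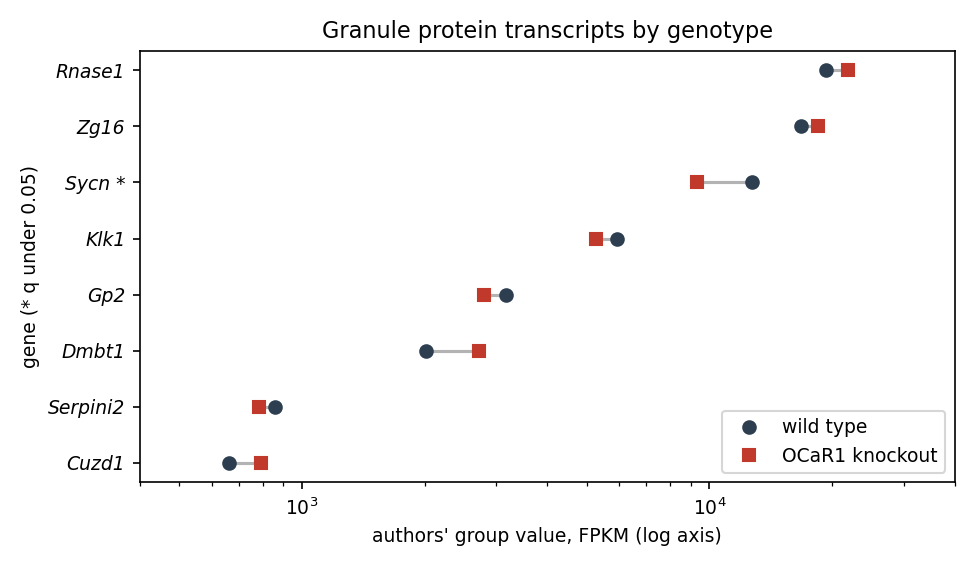
Authors' group value of each of the 8 granule protein genes (x axis, FPKM on a log axis) in wild type (circles) and OCaR1 knockout (squares), 1 value per genotype and therefore without error bars. The asterisk marks Sycn, the 1 gene called at q under 0.05, which stands at 9338 FPKM in knockout and 12703 FPKM in wild-type pancreas.

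Sycn encodes syncollin, a small luminal protein bound to the inner face of the granule membrane. Its group value was 9338 FPKM in knockout and 12703 FPKM in wild-type pancreas, so that it fell by 3365 FPKM, to a 1.36-fold lower level (log2 ratio -0.44, p = 0.0015 and q = 0.0256 in the authors' deposited table). It ranked 19th in abundance among tested genes in the knockout and 16th in wild type. The size of its ratio exceeded that of 84.2% of tested genes with a finite ratio. Sycn was lower under each of the 4 other scalings tried, with log2 ratios from -0.65 to -0.41. Each scaling added 1 constant to every ratio, the largest being -0.21, so none could change its sign.

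In the table Sycn shares its interval, GRCm38 chr7:28399549-28598185, with Pak4 and Gmfg, and reads in such an interval could be divided between its genes. Pak4 (8.70 FPKM in knockout and 8.89 FPKM in wild-type pancreas) and Gmfg (2.81 and 3.10 FPKM) were not called, and Sycn stood 1429-fold above Pak4 in wild type. In the GENCODE annotation of that build (release M21) Sycn is a gene of 2 exons on the plus strand, chr7:28540885-28542209, inside the span of Samd4b on the minus strand. No source used here says whether counting used strand.

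Zg16 encodes a lectin of the granule matrix that links the content to proteoglycans of the inner membrane face. It stood at 18519 FPKM in knockout and 16765 FPKM in wild-type pancreas (log2 ratio 0.14, q = 0.752 in the authors' deposited table). Zg16 is the second most abundant of the 8 genes in both genotypes. It lies on the minus strand of chromosome 7, where the table gives chr7:127050156-127051977 with no other gene in the interval.

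Rnase1 encodes pancreatic ribonuclease, the enzyme that digests RNA in the gut. It was the most abundant of the 8, with 21825 FPKM in knockout and 19330 FPKM in wild-type pancreas (log2 ratio 0.18, q = 0.739 in the authors' deposited table). Among all tested genes Rnase1 ranked 9th in the knockout and 11th in wild type. Sycn lay below both Zg16 and Rnase1 in each genotype. The higher knockout values of Zg16 and Rnase1 depended on scaling: with both genotypes brought to the same summed FPKM outside the digestive enzymes and the 8 genes, which lowers every log2 ratio by 0.21, they became -0.07 and -0.04. Under that scaling the ratio of Dmbt1, 0.43 as deposited, was 0.22, and that of Cuzd1, 0.26 as deposited, was 0.05.

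Klk1 encodes tissue kallikrein, a serine protease that releases kinins. Its values were 5257 FPKM in knockout and 5944 FPKM in wild-type pancreas (log2 ratio -0.18, q = 0.587 in the authors' deposited table). Klk1 shares its interval with the pseudogene Gm10109 on the opposite strand, which had 10.7 FPKM in knockout and 9.74 FPKM in wild-type pancreas. Serpini2 encodes a serpin, a family of mostly serine protease inhibitors, that is made in the acinar cell. It had 786 FPKM in knockout and 858 FPKM in wild-type pancreas (log2 ratio -0.13, q = 0.649 in the authors' deposited table). Both Klk1 and Serpini2 were thus lower by value and neither was called.

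The membrane glycoprotein genes gave no call. Gp2 encodes the main glycoprotein of the granule membrane, held there by a lipid (GPI) anchor and built with a zona pellucida domain. It had 2803 FPKM in knockout and 3170 FPKM in wild-type pancreas (log2 ratio -0.18, q = 0.619 in the authors' deposited table). Dmbt1 encodes a large glycoprotein of scavenger receptor, CUB and zona pellucida domains, known in mouse pancreas as the precursor of the sulfated granule protein muclin. It had 2724 FPKM in knockout and 2018 FPKM in wild-type pancreas, 1.35-fold higher by value (log2 ratio 0.43, p = 0.0282 and q = 0.199 in the authors' deposited table). Cuzd1 encodes a smaller membrane protein with CUB and zona pellucida domains. It had 792 FPKM in knockout and 663 FPKM in wild-type pancreas (log2 ratio 0.26, q = 0.927 in the authors' deposited table). In abundance Gp2 ranked 26th and Dmbt1 32nd among tested genes in wild type, and 32nd and 33rd in the knockout; this change of spacing was not tested.

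Summed over the 8 genes, the level hardly differed between genotypes, at 62043 FPKM in knockout and 61450 FPKM in wild-type pancreas (1.01-fold). The make-up of that sum differed by value. The share of Sycn was 15.1% in the knockout and 20.7% in wild type, that of Rnase1 35.2% and 31.5%, and that of Zg16 29.8% and 27.3%. Without Sycn, the other 7 genes summed to 52705 FPKM in knockout and 48748 FPKM in wild-type pancreas. The 3 membrane glycoprotein genes summed to 6319 and 5851 FPKM. These sums carry no error and were not tested.

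**Figure D2:**
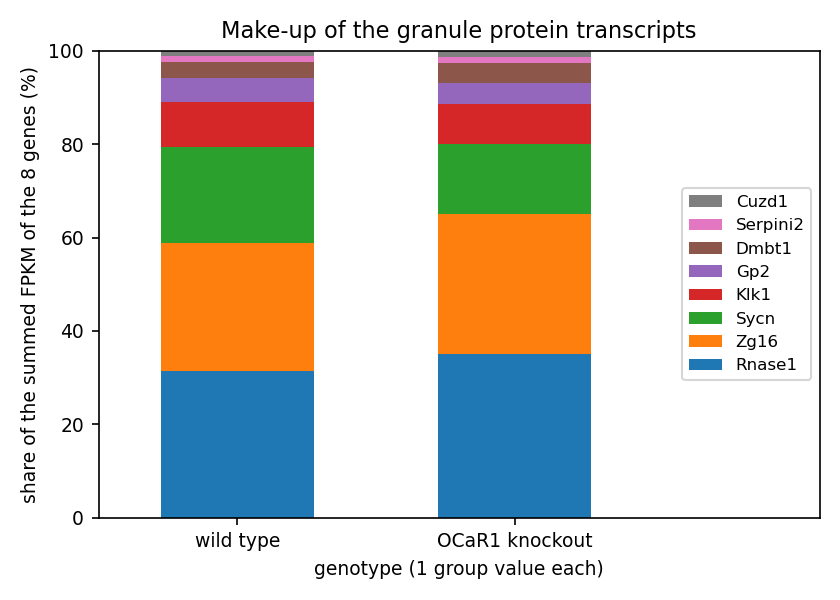
Share of each gene in the summed FPKM of the 8 granule protein genes (y axis, percent, from 0) in wild type and OCaR1 knockout, 1 group value per genotype and no error bars. The Sycn segment covers 20.7% of the wild-type bar and 15.1% of the knockout bar.

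Transcript length sets how many fragments lie behind an FPKM value. By GENCODE the longest coding transcript of Dmbt1 has 48 exons and 6272 bases, that of Sycn 2 exons and 556 bases. FPKM multiplied by that length in kilobases, a rough relative measure of the fragments behind it, was 12659 for Dmbt1 and 7063 for Sycn in wild type, although the FPKM of Sycn was the higher. In the knockout the products were 17083 and 5192. Among the 8 genes the product was lowest for Serpini2, at 1109 in the knockout and 1210 in wild type. The effective lengths of Cuffdiff were not used here.

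Most of the group lies on 1 chromosome. Chromosome 7 carries 6 of the 8 genes (Sycn, Klk1, Gp2, Zg16, Dmbt1 and Cuzd1) and 7.39% of all tested genes. The 6 genes did not share a direction: Sycn, Klk1 and Gp2 were lower by value and Zg16, Dmbt1 and Cuzd1 higher as deposited. Dmbt1 (plus strand, chr7:131032053-131121630) and Cuzd1 (minus strand, chr7:131308554-131322292) are close neighbours in GENCODE, 187 kb apart. In the table both fall into 1 interval of 2.96 Mb, chr7:130162451-133124354, which holds 22 genes. Its start is that of Fgfr2, whose span in GENCODE (2.96 Mb) covers both genes.

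The authors' test statistic can be set beside the size of each ratio. Dividing the size of the log2 ratio by the size of the deposited test statistic gives the log2 change per unit of the statistic, which is larger where a given fold change counted for less. It was 0.34 for Sycn, 0.33 for Klk1, 0.36 for Gp2, 0.38 for Zg16, 0.27 for Serpini2 and 0.46 for Rnase1, beside a median of 0.43 over the tested genes that are alone in their interval. For Dmbt1 it was 0.48, close to that of Rnase1, and for Cuzd1 1.67, the highest of the 8. Among the other 20 genes of the Dmbt1 interval the lowest value was 9.48 and the median 29.1, and the most abundant of them, Acadsb, had 44.4 FPKM in wild type. As deposited, Dmbt1 and Sycn had ratios of nearly the same size, 0.43 and 0.44, and test statistics of -0.90 and 1.32 (wild type over knockout).

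Across the whole table the share of called genes was lower in more crowded intervals. It was 9.35% of 8373 genes alone in their interval, 3.38% of 1924 genes in intervals of 2, 1.91% of 837 in intervals of 3 to 4, and 0.847% of 236 in intervals of 5 to 9. Of 108 tested genes in intervals of 10 or more, Cuffdiff called 0, and 1 had an unadjusted p under 0.05, which is Dmbt1. The median size of the log2 ratio was 0.18 for genes alone in their interval and 0.19 in the most crowded class. The absence of a call does not show that Dmbt1 or Cuzd1 was unchanged, and the part of the shared interval in it was not tested.

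**Figure D3:**
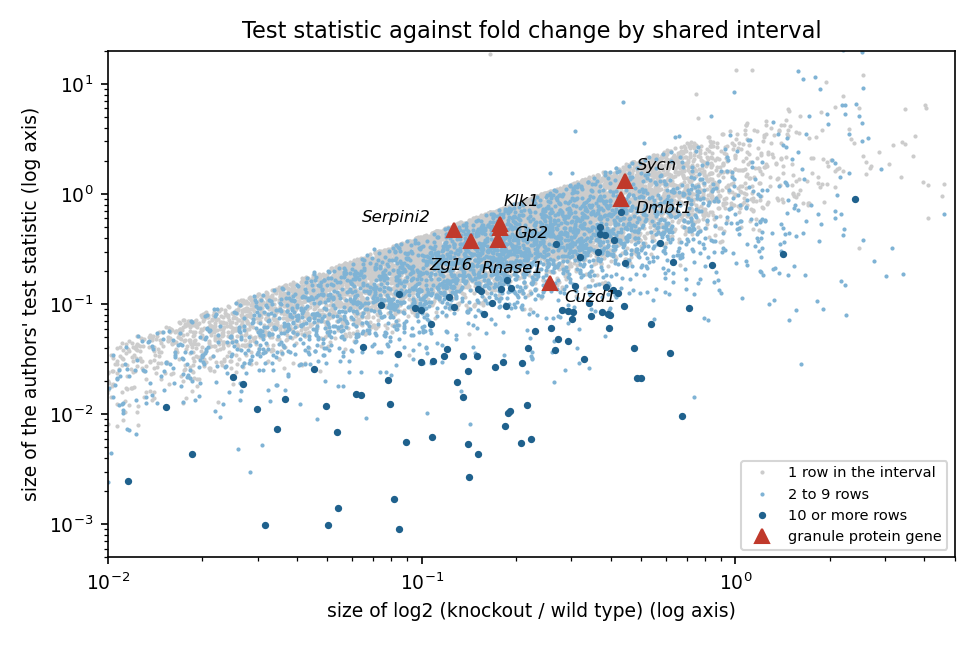
Size of the authors' test statistic (y axis, log axis) against the size of the log2 ratio of knockout to wild type (x axis, log axis) for tested genes, coloured by how many genes share the interval; triangles are the 8 granule protein genes and values beyond the axes are not drawn. Cuzd1 lies below the other 7 triangles, and genes in intervals of 10 or more mostly lie below those alone in their interval.

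Abundant transcripts form a reference closer in level for these genes. Of 43 tested genes with at least 1000 FPKM in wild type, 10 were called (23.3%), 5 of them lower in the knockout (11.6%). The group has 6 genes at this level, all but Cuzd1 and Serpini2, and 1 of the 6 was called. The other 37 genes had a median log2 ratio of 0.13 and ran from -1.19 to 1.90. They are of mixed kinds and include immunoglobulin joining segments and mitochondrial tRNA genes. The upper end, 1.90, is the joining segment Igkj5, which was not called. Over these 2 genotypes the 3 abundant genes with the log2 ratio closest to that of Sycn were the trypsinogen gene Try4 (-0.39, q = 0.278 in the authors' deposited table), the metallothionein gene Mt1 (-0.36, q = 0.0139) and Gp2 (-0.18). Likeness over 2 values carries little information, and no more than the closeness of the ratios is meant by it.

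**Figure D4:**
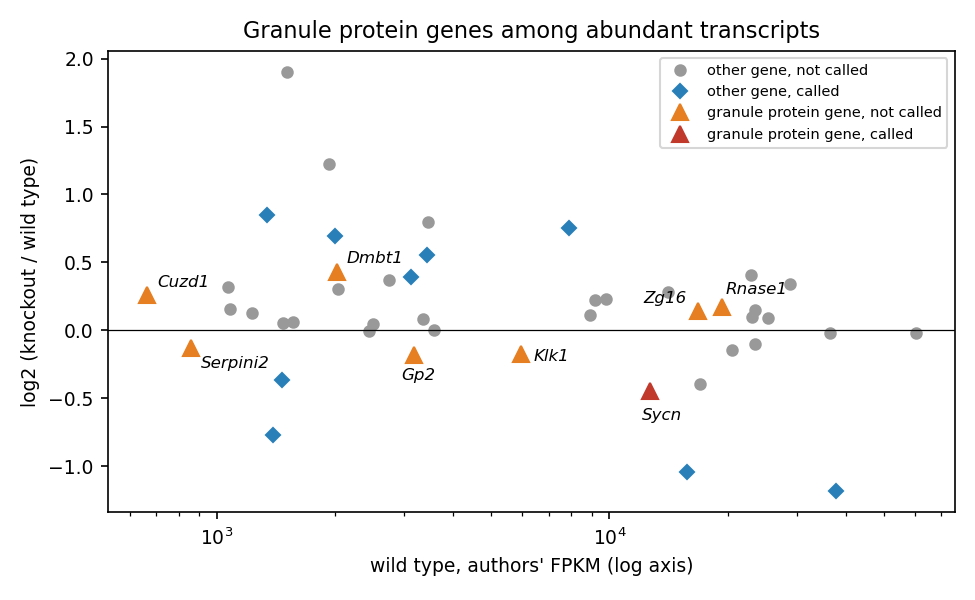
Log2 ratio of knockout to wild type (y axis) against the wild-type FPKM (x axis, log axis) for the 8 granule protein genes (triangles) and the other 37 tested genes of at least 1000 FPKM in wild type (circles, or diamonds where called), 1 value per gene without error. The granule protein genes lie between -0.44 and 0.43, inside the range of -1.19 to 1.90 of the others, whose upper end is the uncalled immunoglobulin segment Igkj5.

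The enzymes stored beside these proteins covered a wider range. Of 25 tested genes of digestive enzymes and Spink3, the authors' deposited table called 5 upward and 2 downward. This is 28.0%, beside 7.54% of all tested genes. It is closer to the 23.3% called among the 43 tested genes of at least 1000 FPKM in wild type. That reference includes many of these enzyme genes. Of the 18 enzyme list genes most abundant in wild type, 1 was called upward and 2 downward. The remaining upward calls were of less abundant genes, so the 28.0% is no sign of an excess among abundant cargo. The median log2 ratio of the 25 genes was 0.09. The median size of their ratios was 0.15, not above the 0.18 of the 8 genes. The calls among abundant cargo were Cela1, Pnlip and Spink3. Cela1, an elastase gene, had 16591 FPKM in knockout and 37728 FPKM in wild-type pancreas (log2 ratio -1.19, q = 0.0487 in the authors' deposited table). This is a larger fall than that of Sycn, with a q close to the threshold. Pnlip, a lipase gene, fell from 15748 FPKM in wild type to 7662 FPKM (log2 ratio -1.04, q = 0.0407). Spink3 rose from 3127 to 4105 FPKM (log2 ratio 0.39, q = 0.00816). The trypsinogen genes Gm5771, Prss3 and Prss1 rose by 1.49, 1.08 and 1.07 on the log2 scale, at levels under 1000 FPKM in both genotypes. Trypsinogen paralogs are close in sequence, so that reads could be divided between them. Prss2, the most abundant enzyme gene of the list, stood at 59529 and 60473 FPKM (q = 0.984 in the authors' deposited table).

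Genes of granule membrane traffic showed calls in both directions. Of 23 tested genes for fusion proteins, small GTPases and other parts of the granule membrane, the authors' deposited table called 2 upward and 2 downward, with a median log2 ratio of -0.01. The share called was 17.4%, beside 7.54% of all tested genes. Slc30a2, a transporter that carries zinc into granules, fell from 9.33 FPKM in wild type to 4.71 FPKM (log2 ratio -0.99, q = 0.00152), and Hid1, known for a part in the formation of dense core granules, from 56.2 to 39.4 FPKM (q = 0.00283). The syntaxin genes Stx2 (1.95 FPKM in wild type and 4.19 FPKM in the knockout) and Stx4a (11.1 and 15.4 FPKM), which encode target membrane fusion proteins, rose in the authors' deposited table. Rab3d, a GTPase on the granule surface and the most abundant gene of the list in wild type, had 69.1 FPKM in knockout and 93.5 FPKM in wild-type pancreas, without a call (q = 0.246). Its log2 ratio was -0.44, as was that of Sycn.

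Gp2 needs the attachment of its lipid anchor, and muclin the supply of sulfate. Of 13 tested genes of GPI attachment, sulfate supply and protein sulfation, 1 was called, higher: Papss2, which makes the activated sulfate donor, had 1.66 FPKM in knockout and 1.21 FPKM in wild-type pancreas (q = 0.0329 in the authors' deposited table). Gpaa1, a subunit of the enzyme that attaches the anchor, had 16.1 and 17.8 FPKM (q = 0.834). The median of the list was -0.15, with 11 of the 13 values below 0. None of those 11 was called. Over all tested genes the median was -0.03, with 6312 values below 0 and 5129 above.

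Relatives of the 8 proteins were far less abundant, and of 31 tested the authors' deposited table called 5 upward and 2 downward. The share called was 22.6%, beside 7.54% of all tested genes. Of 7 kallikrein genes near Klk1, Klk1b11 rose from 14.6 to 22.2 FPKM (log2 ratio 0.61, q = 0.00152), and Klk1b5, the most abundant, had 113 FPKM in knockout and 122 FPKM in wild-type pancreas (q = 0.654). These are close paralogs of Klk1, between which reads could be divided. Among 9 serpins 1 was called, Serping1, the inhibitor of complement C1 (17.3 FPKM in knockout and 11.6 FPKM in wild-type pancreas). The scavenger receptor genes Cd163 (log2 ratio 1.09) and Scara5 (0.61) also rose in the authors' deposited table. Cd163 is a macrophage gene, and of 13 macrophage markers 10 were called higher. All 5 genes of other ribonucleases and the ribonuclease inhibitor had values below those of wild type, opposite to Rnase1 as deposited, whose sign depended on scaling. Among them Rnase4 and Ang share 1 interval, in which reads could be divided. Rnaset2a and Rnaset2b had only 1.02 and 0.854 FPKM in the knockout and 1.22 and 1.12 FPKM in wild type. The 5 values are therefore not all separate observations. Of these 5, 1 was called, Rnase4 (50.0 FPKM in knockout and 64.3 FPKM in wild-type samples; q = 0.0256 in the authors' deposited table), which was singled out after its values were seen.

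Transcription factors that keep acinar cells in their secretory state gave downward calls. Of 12 tested, 4 were called lower and 0 higher by Cuffdiff in the authors' deposited table (6 had an unadjusted p under 0.05), and the median log2 ratio was -0.25. Over all tested genes 3.35% were called lower and 4.20% higher, 17.5% had an unadjusted p under 0.05, and the median was -0.03. Ptf1a, which forms the PTF1 complex with Rbpjl and an E protein at promoters of secretory genes, fell from 40.9 to 27.2 FPKM (q = 0.00152). Its partner gene Rbpjl had 159 FPKM in knockout and 153 FPKM in wild-type pancreas (q = 0.935 in the authors' deposited table). The E protein gene Tcf3 had 4.27 and 4.59 FPKM (q = 0.824), and Bhlha15 64.3 and 68.6 FPKM (q = 0.753), so none of these 3 was called. Gata4 fell by 0.54, Foxa3 by 0.48 and Nr5a2 by 0.35 on the log2 scale. By value, 10 of the 12 were lower and 2 higher. Xbp1, a factor of the secretory pathway, had 246 FPKM in knockout and 304 FPKM in wild-type pancreas (q = 0.105 in the authors' deposited table). These values stand beside those of Sycn without any test of a link between them.

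Promoters of 3 of the genes are shown because this complex is known to recognise a pair of short elements, an E-box (CANNTG) and the TTCCCA box of Rbpj proteins: Sycn as the called gene, Gp2 as the membrane protein gene whose promoter holds both elements, and Rnase1 as the most abundant. Each is the 250 bases before the RefSeq start (GRCm38.p6), 5′ to 3′ on the gene's strand, at chr7:28540635-28540884 (plus) for Sycn, chr7:119459273-119459522 (minus) for Gp2 and chr14:51146768-51147017 (minus) for Rnase1. Capitals mark E-boxes and TTCCCA or its reverse complement.
Sycn: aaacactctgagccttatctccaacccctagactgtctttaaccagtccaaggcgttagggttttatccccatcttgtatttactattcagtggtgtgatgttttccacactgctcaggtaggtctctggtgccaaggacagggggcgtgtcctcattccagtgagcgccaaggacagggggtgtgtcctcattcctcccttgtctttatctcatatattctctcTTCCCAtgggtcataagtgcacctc
Gp2: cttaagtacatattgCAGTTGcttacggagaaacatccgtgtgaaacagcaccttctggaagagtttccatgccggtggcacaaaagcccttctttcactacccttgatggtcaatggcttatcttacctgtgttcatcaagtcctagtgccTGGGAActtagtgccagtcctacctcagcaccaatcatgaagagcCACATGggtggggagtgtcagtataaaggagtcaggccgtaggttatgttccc
Rnase1: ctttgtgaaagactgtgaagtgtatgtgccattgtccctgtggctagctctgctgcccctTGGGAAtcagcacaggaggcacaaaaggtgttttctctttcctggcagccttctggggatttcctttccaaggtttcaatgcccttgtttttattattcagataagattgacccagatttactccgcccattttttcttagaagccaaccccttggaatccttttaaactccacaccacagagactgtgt
The RefSeq table matched 6 of the 8 genes, all but Zg16 and Dmbt1. Searched on both strands, TTCCCA occurred in 4 of the 6 (Sycn, Gp2, Klk1 and Rnase1) and in 21.6% of all 32851 promoters of this length. An E-box occurred in Gp2, Klk1, Cuzd1 and Serpini2, also 4 of 6, and in 66.2% of all promoters. Gp2 and Klk1 held both. The GATA core GATAA, searched likewise, occurred in Sycn, Gp2, Rnase1 and Serpini2 and in 22.6% of promoters. TATAAA occurred in Gp2, 32 bases before the start, and on the other strand in Serpini2, 244 bases before it, and in 12.4% of promoters. AAGGTCA, the core of Nr5a2 sites, occurred in Klk1 and in 4.08% of promoters. Among the matches in the 6 promoters, 0 pairs of different motifs overlapped. These matches describe letters in a window and are no sites of binding.

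Markers of other cell types of the tissue were called in both directions. Of 18 tested islet markers 13 were called higher and 0 lower by Cuffdiff (14 had an unadjusted p under 0.05), and their summed level was 4167 FPKM in knockout and 2600 FPKM in wild-type pancreas. Macrophage markers summed to 139 and 78.9 FPKM (10 of 13 higher), fat cell markers to 194 and 87.2 FPKM (6 of 7 higher), fibroblast markers to 532 and 398 FPKM (6 of 10 higher) and endothelial markers to 103 and 78.9 FPKM (5 of 10 higher). Duct markers summed to 247 and 226 FPKM, with 1 of 8 higher, and smooth muscle markers to 33.5 and 69.9 FPKM, with 5 of 8 lower. The largest differences among the smooth muscle markers were those of Actg2 (0.878 FPKM in knockout and 14.6 FPKM in wild-type pancreas, log2 ratio -4.06) and Cnn1 (0.307 and 3.43 FPKM, log2 ratio -3.48). Of the 8, 1 was higher by value. Of 3 plasma cell markers 1 was called, Igj, the joining chain gene of secreted antibodies, at 5.03 FPKM in knockout and 1.66 FPKM in wild-type pancreas, while Sdc1 was lower by value (log2 ratio -0.45). All these counts are calls of the authors' deposited table, which over all tested genes called 4.20% higher and 3.35% lower. None of the tested markers was listed at 0. The part of these cell types in the difference of Sycn was not tested. In whole tissue, fewer cells of a type and less RNA per cell cannot be told apart.

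Some of the 8 genes are also active outside the pancreas, Zg16 and Dmbt1 in gut epithelium and Klk1 in salivary gland. Of 12 intestinal markers 3 were in the table, among them Krt20 (8.27 FPKM in knockout and 7.65 FPKM in wild-type pancreas), and they summed to 11.0 and 11.3 FPKM. Of 12 salivary markers 2 were, Egf at 10.7 and 12.6 FPKM and Amy1, a list member that the pancreas list holds too, at 95.7 and 99.5 FPKM. By Cuffdiff 0 of these 5 genes were called (1, Egf, had an unadjusted p under 0.05). These levels lie far below those of Zg16, Dmbt1 and Klk1. Whether the samples held tissue from outside the pancreas was not tested.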

How the data were processed

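Pancreas RNA of 3 knockout and 3 wild-type mice (integrity numbers 8.20 to 9.10, 2.5 µg each, poly(A) selected) was sequenced as 50-base single reads, per the labels' protocols. The submitters' processing notes name STAR 2.5.1b, Cufflinks 2.2.1, Cuffdiff and GRCm38. No source used here gives the annotation release, the treatment of multi-mapped reads and of strand, or the Cuffdiff settings. Per the file headers, the deposited table holds 1 FPKM value per genotype, a test statistic (a score), a p-value and a q-value. Depth is unknown. Every row has at least 1.00 FPKM in 1 genotype, so genes lower in both were not analysed here.

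Log2 ratios were computed as knockout over wild type from the deposited FPKM values with no pseudocount, since the deposited log2 column has 352 error cells. The 538 rows marked as not tested stayed out of counts, and 37 tested rows under 0.01 FPKM in a genotype stayed out of ratios. Calls are the authors', with q under 0.05 as threshold; the planned limma test needs values per library and was not made. Interval starts were shifted to count from 1. Gene structure came from GENCODE release M21 and promoters from RefSeq. Pseudocounts of 0.5 and 1, 4 scalings, other q thresholds, a renewed Benjamini-Hochberg adjustment and a filter at 5 FPKM were tried; scaling and adjustment were tested on simulated data. The 8 genes and the lists were chosen with earlier results of these data known. Named were the 8 genes, rows in their intervals, Tmem63a, up to 4 called genes of each list with the largest ratio, its most abundant uncalled gene, and for each called gene of the 8 the 3 genes of at least 1000 FPKM with the closest ratio. Exceptions are Pnlip, Spink3, Rnase4, Ang, Rnaset2a, Rnaset2b, Egf, Rbpjl, Tcf3, Bhlha15 and Igkj5, the enzyme genes named as not found, and the rows of intervals that are summarised. Not every marker gene so named is printed. Python 3.11.15, pandas 2.3.3 and numpy 2.4.6 were used.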

Additional observations from a re-analysis of the deposited data

How the results depend on the processing

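No paired analysis was possible because the table gives 1 value per genotype, and for the same reason no replicate could be left out and no planned fit per library was made. The call of Sycn stayed after a renewed Benjamini-Hochberg adjustment, at q under 0.1 and with rows of at least 5 FPKM only. The looser threshold could not remove it. The renewed adjustment and the filter reused the deposited p-values, and the adjustment gave 867 calls among all tested genes against 866. These outcomes are thus no sign of stability between mice. At q under 0.01 the number of called genes among the 8 was 0 in place of 1. Without the genes in shared intervals, Sycn among them, it was also 0. Among all tested genes there were 522 calls at q under 0.01 (311 higher and 211 lower) and 521 with rows of at least 5 FPKM only (241 higher and 280 lower), against 866 (482 and 384). Under 4 scalings and 2 pseudocounts, the 48 recomputed ratios of the 8 genes moved by less than the log2 change per unit of the authors' statistic. This outcome was set in advance. Each scaling added 1 constant to every ratio, the largest being -0.21, while that change per unit was 0.27 or more. The pseudocounts are small beside these levels. The comparison is thus no sign of stability. Zg16 and Rnase1, neither called, changed sign under the scaling without digestive enzymes. The median of the 8 ranged from -0.20 to 0.04 over the scalings and pseudocounts. With 1 value per genotype, differences smaller than the unknown spread between mice cannot be told from it.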
